A study of Mus musculus with 14 samples.

Results

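The genes of the Toll-like receptor and NF-κB pathway were examined in cultured microglia, the macrophages that reside in brain tissue, of TIMP2 knockout (KO) and wild-type (WT) mice. The set was given as 47 gene symbols, listed by their place in the pathway under a rule that uses no measured value, and all 47 were found among the 49315 genes of the count table. TIMP2 is a secreted inhibitor of matrix metalloproteinases. There were 7 KO and 7 WT libraries, each from an independent pool of forebrains of 5 pups of strain C57BL/6 at P6-P7, with males and females mixed and the sexes matched. The KO is a global Timp2-/- deletion, so cells other than microglia also lacked the gene before isolation. The labels name no other allele in either genotype. Cells were selected with CD11b microbeads, cultured on poly-d-lysine and collected, and no stimulus of the receptors is named for these cultures.

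Toll-like receptors bind microbial lipids, proteins and nucleic acids, either at the cell surface or inside endosomes, and microglia use them to sense infection and damaged tissue. Adaptors such as MyD88 and TRIF pass the signal through IRAK kinases and TRAF ubiquitin ligases to the TAK1 and IKK complexes. IKK marks the IκB proteins for destruction, which frees NF-κB dimers to enter the nucleus, and the genes that NF-κB switches on include those of its own inhibitors, IκBα and A20.

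Many NF-κB target genes carry κB sites near their start, and 4 promoters with a match are printed here because their genes were among the members that varied most between libraries. They were picked for both traits, so they show no link between a match and the variation. Nfkb2 also had both and is not printed. The sequences are from RefSeq (GRCm38.p6), each running from 250 bases before to 50 bases after the gene's start on the gene's own strand. Capitals mark matches to the κB consensus on either strand, with overlapping matches joined. Nfkbia, which encodes IκBα, has its promoter at chr12:55492598-55492897 (minus strand), with 1 marked stretch, which began at position -29 from the start. Tnfaip3, which encodes the ubiquitin-editing enzyme A20, has its promoter at chr10:19015361-19015660 (minus strand), with 2 marked stretches. The promoter of Nfkbie, the gene of IκBε, is at chr17:45555450-45555749 (plus strand) and has 1, and that of Tlr2 is at chr3:83841559-83841858 (minus strand) and has 2.
Nfkbia: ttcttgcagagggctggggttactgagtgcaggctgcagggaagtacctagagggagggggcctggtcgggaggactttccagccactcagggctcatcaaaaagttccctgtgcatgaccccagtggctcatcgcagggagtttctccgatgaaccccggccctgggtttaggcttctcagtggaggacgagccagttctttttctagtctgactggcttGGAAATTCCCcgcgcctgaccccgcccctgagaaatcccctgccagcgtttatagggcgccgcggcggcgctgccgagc
Tnfaip3: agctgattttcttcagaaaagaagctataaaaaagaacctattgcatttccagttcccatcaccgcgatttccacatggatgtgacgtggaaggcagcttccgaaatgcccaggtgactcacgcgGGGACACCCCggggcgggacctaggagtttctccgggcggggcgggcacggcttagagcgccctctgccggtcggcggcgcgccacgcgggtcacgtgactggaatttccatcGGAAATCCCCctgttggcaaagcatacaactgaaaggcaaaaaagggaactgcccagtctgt
Nfkbie: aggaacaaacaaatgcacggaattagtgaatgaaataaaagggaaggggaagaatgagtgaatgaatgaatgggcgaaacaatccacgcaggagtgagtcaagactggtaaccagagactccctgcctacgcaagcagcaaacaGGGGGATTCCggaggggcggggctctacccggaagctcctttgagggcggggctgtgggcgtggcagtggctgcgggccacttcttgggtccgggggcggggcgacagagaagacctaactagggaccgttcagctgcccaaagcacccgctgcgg
Tlr2: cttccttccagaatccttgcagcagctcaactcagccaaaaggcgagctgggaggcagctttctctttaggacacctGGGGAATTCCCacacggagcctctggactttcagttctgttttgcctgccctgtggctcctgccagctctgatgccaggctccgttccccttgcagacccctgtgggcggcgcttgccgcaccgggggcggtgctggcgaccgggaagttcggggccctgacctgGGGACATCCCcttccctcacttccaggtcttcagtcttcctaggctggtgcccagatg

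A promoter was at hand for 36 of the 47 members, and 9 of them (25.0%) held a match: Tlr2, Tlr3, Traf3, Map3k7, Rel, Nfkb2, Nfkbia, Nfkbie and Tnfaip3. Among all 27025 genes with a promoter in the table, 1388 (5.14%) held one. The share was not particular to the members. Of 42 other genes of the pathway with a promoter 10 held a match, and of 30 genes known to respond to NF-κB 9 did. The NF-κB subunits and the inhibitors supplied 5 of the 9 members with a match, from 3 and 4 genes with a promoter, and the adaptors (3 genes), the co-receptors (2 genes) and the TBK1 branch (4 genes) supplied none. A match describes these letters alone, not a bound site.

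The libraries held between 38875344 and 48070236 counted reads. Levels are given as CPM, the count relative to the library total after TMM scaling, and, between genes, as RPKM, which is CPM divided by the exonic length in kilobases. Differences are log2 fold changes of KO over WT with their standard error (SE) from edgeR. The quasi-likelihood test of edgeR was applied to 15700 genes, among them all 47 members, and a gene was called at a Benjamini-Hochberg adjusted p under 0.05. The deleted gene came first among the calls: Timp2 had 122 ± 3.14 CPM in the KO libraries and 464 ± 36.8 CPM in the WT libraries (SD, n = 7 each), and its log2 fold change was -1.92 (edgeR, adjusted p = 1.53e-12). The others were Engase and Gm11748, both lower in KO, so that 3 of all tested genes (0.0191%) were called. The identity list, 20 genes such as Csf1r and Spi1, summed to between 18939 and 22614 CPM in KO and between 18694 and 21653 CPM in WT, and KO replicate 1 and WT replicate 1 had the lowest sums. The bulk counts cannot tell fewer cells of a type from less RNA per cell.

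By RNA level, the pathway was led by the genes of 2 proteins that each serve several receptors. Cd14, the co-receptor that hands lipopolysaccharide to TLR4, was at 337 ± 34.1 RPKM (SD over 14 libraries), and Unc93b1, the chaperone that carries receptors to endosomes, was at 228 ± 21.2 RPKM. Their ranges over the 14 libraries were apart from each other and from the next member, Tlr7. Irf5, a transcription factor downstream of MyD88, Cd180, a receptor-like inhibitor of TLR4, and Ly86, its partner MD-1, followed at 109, 100.5 and 95.6 RPKM, with ranges that overlapped.

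Among the receptors the order was Tlr7, Tlr13, Tlr2, Tlr1, Tlr8, Tlr4, Tlr9, Tlr6, Tlr3, Tlr12 and Tlr5. Tlr7, a sensor of single-stranded RNA, was at 110.3 ± 5.04 RPKM (SD over 14 libraries) and Tlr13, the mouse sensor of bacterial ribosomal RNA, at 79.4 ± 3.93 RPKM. Tlr2, which senses bacterial lipoproteins together with TLR1 or TLR6, was at 39.0 ± 8.50 RPKM. Tlr4, the lipopolysaccharide receptor, was lower at 16.4 ± 1.33 RPKM. Tlr12 and Tlr5, sensors of protozoan profilin and of flagellin, were at 0.166 and 0.0690 RPKM, which rest on means of 22.9 and 14.4 reads per library. Neighbours in this order with overlapping ranges were Tlr2 and Tlr1 (Tlr2 higher in 14 of 14 libraries), Tlr8 and Tlr4 (10 of 14), Tlr9 and Tlr6 (8 of 14), and Tlr12 and Tlr5 (13 of 14). The other neighbouring pairs had ranges that were apart.

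**Figure D1:**
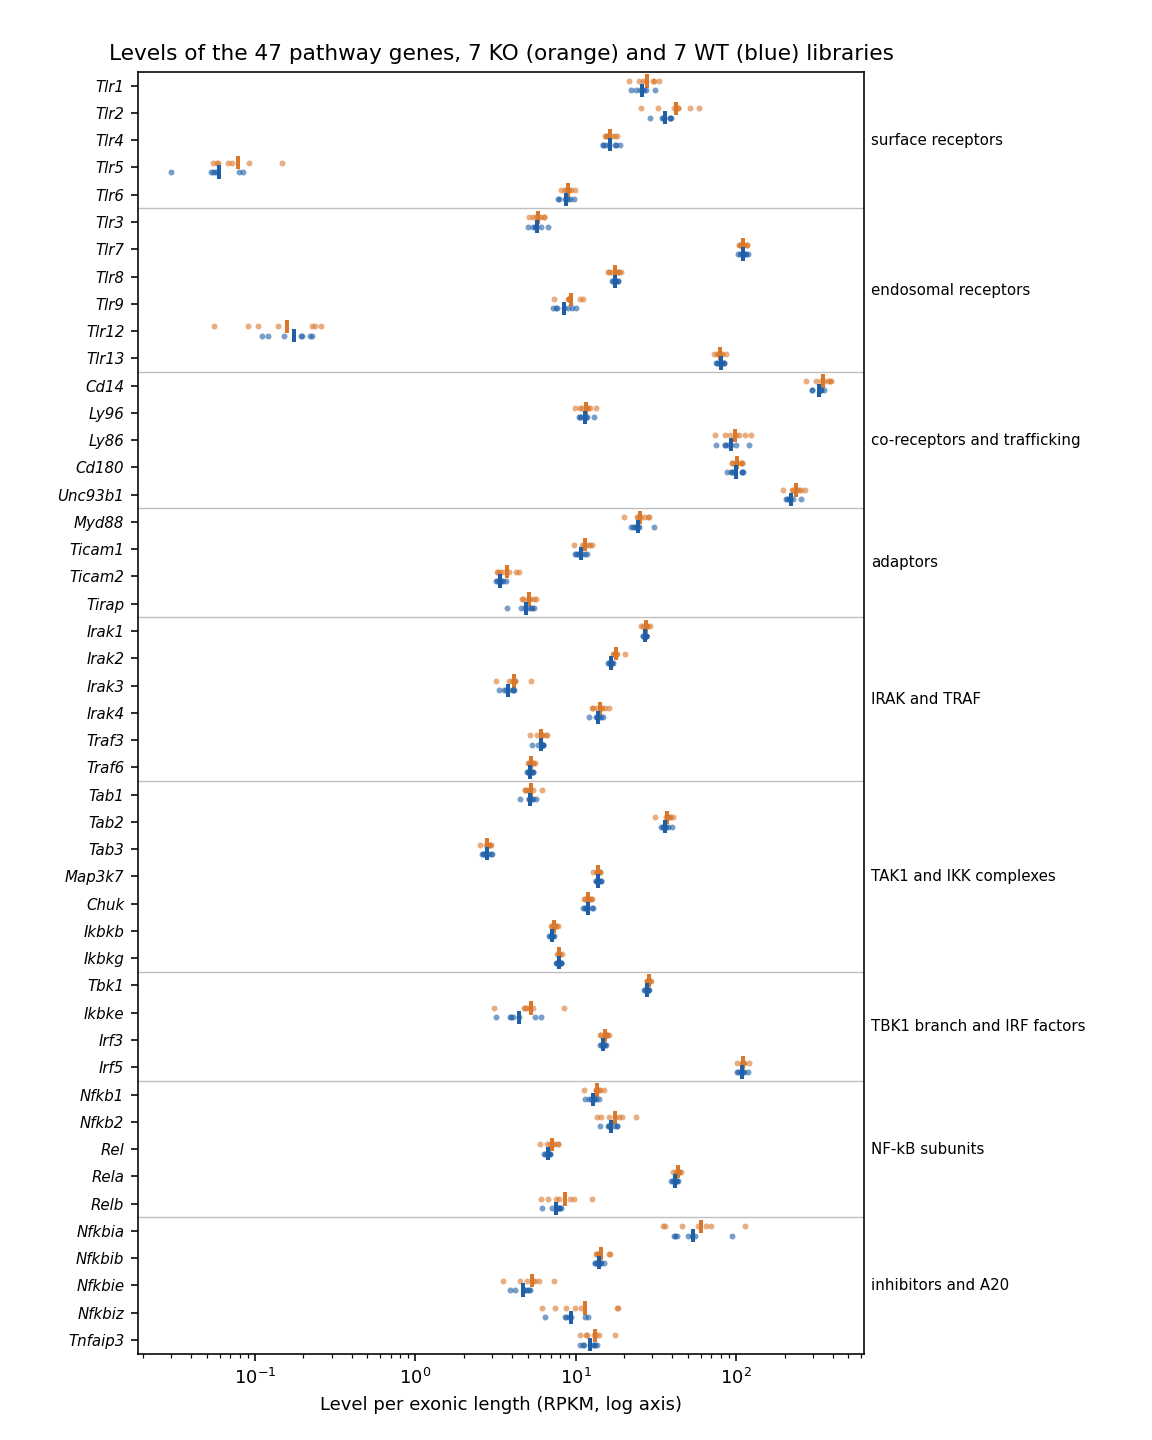
Level of each of the 47 genes in RPKM (log axis), grouped by place in the pathway, with 7 KO libraries in orange and 7 WT libraries in blue (points, libraries; ticks, means). Levels run from 0.0690 RPKM for Tlr5 to 337 RPKM for Cd14, and the KO and WT ranges of every gene overlap.

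The highest members of the downstream layers were Myd88 among the adaptors at 24.9 RPKM, Irak1 at 27.2 RPKM, Tab2, a TAK1-binding scaffold, at 36.6 RPKM, Irf5, Rela, a main activating NF-κB subunit, at 42.3 RPKM, and Nfkbia at 57.1 RPKM. The lowest members outside the receptors were Tab3 at 2.79 RPKM and Ticam2, the bridging adaptor TRAM, at 3.54 RPKM. The value of Ticam2 is uncertain, since 14.5% of its exonic bases are shared with Tmed7 on the same strand. The strand setting of the counting is not given, so overlaps with genes on the other strand add doubt that varies by gene. For Irf5, Myd88, Nfkb2 and Nfkbib, 14.2%, 11.3%, 11.6% and 14.5% of the exonic bases overlap Tnpo3, Acaa1a, AC114539.1 and Ccer2. Tnpo3 and Acaa1a had means of 4103 and 3679 reads per library, but Ccer2 had 1.5. Smaller overlaps with genes of higher counts included Irak4 with Twf1 (7.87%), Irak3 with Tmbim4 (5.22%) and Ikbkg with G6pdx (5.15%). Levels per length also depend on the gene model. With the longest transcript in place of all exonic bases, Ikbkb moved from rank 34 to rank 16 and Nfkb1 from rank 24 to rank 12. Tlr7 moved from rank 3 to rank 6, below Cd180, Irf5 and Ly86. In the order of the receptors, Tlr4 then stood above Tlr8 and Tlr6 above Tlr9.

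The comparison of KO with WT asks whether loss of TIMP2 goes with a different level of the pathway. None of the 47 members was called, and the smallest adjusted p among them was 0.943 (edgeR). At an unadjusted p under 0.05 there was 1 member, Irak2, beside 3.37% of all tested genes, and DESeq2 called none of the members and also placed only Irak2 at an unadjusted p under 0.05. In no member were the KO and WT libraries apart, beside 0.0828% of all tested genes. The 95% interval of the log2 fold change lay within 0.5 of 0 for 41 of the 47 members, and it held 0 for 46.

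The direction of the small differences was mostly the same but depended on the scaling. With TMM, 42 of 47 members had a positive log2 fold change, with a median of 0.05, beside 50.8% of all tested genes with a median of 0.00. With libraries scaled to the identity genes, 20 of 47 were positive and the median was -0.02, beside 20.8% of all tested genes with a median of -0.06. The median of the members was thus 0.05 above that of all genes under TMM and 0.04 above it under the identity scaling. A change of scaling moves the values of all genes by nearly the same amount. The likeness of these differences is therefore built in, and it says nothing further about the members. Of the 20 identity genes, 17 were positive under TMM, with a median of 0.04. Under the identity scaling 9 of them were positive, with a median of -0.02. These counts describe lists of genes and were not tested. Without WT replicate 4 the number of positive members was 37, and without KO replicate 7 it was 44 (TMM).

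**Figure D2:**
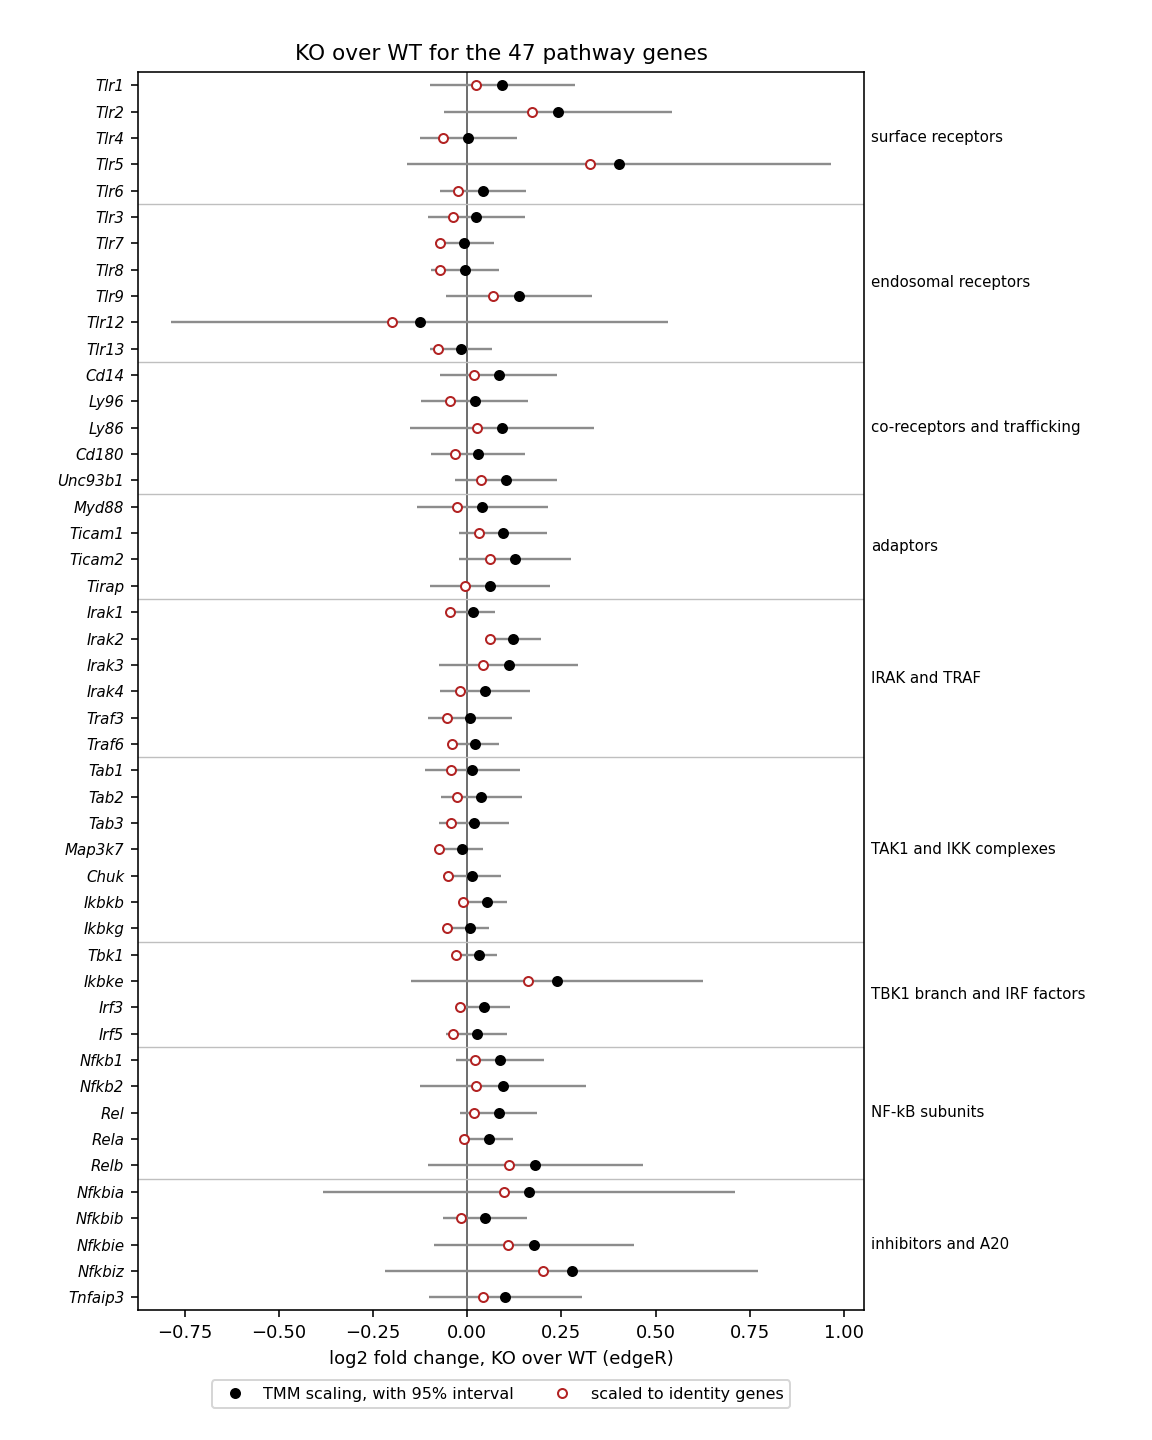
Log2 fold change of KO over WT for each of the 47 genes (edgeR, n = 7 per genotype). Black points with 95% intervals are from TMM scaling, with 42 positive, and open red points are from scaling to the identity genes, with 20 positive; the only interval without 0 is that of Irak2.

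Irak2, a MyD88-bound kinase family member that sustains signalling to TRAF6, was at 74.7, 76.0, 78.7, 89.1, 77.3, 79.6 and 77.5 CPM in KO replicates 1 to 7, and at 69.8, 70.6, 72.8, 73.5, 72.4, 75.3 and 73.9 CPM in WT replicates 1 to 7. In 6 of 7 KO libraries it was above all WT libraries, and KO replicate 1 lay within the WT range. The log2 fold change was 0.12 with an SE of 0.0348 (unadjusted p = 0.00333, adjusted p = 0.943, edgeR). A two-sided exact permutation test of log2 CPM gave an unadjusted p = 0.00117, where 0.000583 is the smallest possible. Irak2 had the smallest unadjusted p of the members, and this test used the same libraries, so it is not separate evidence. The log2 fold change stayed positive in all the alternatives tried, but with libraries scaled to the identity genes it no longer had an unadjusted p under 0.05. Irak2 (ENSMUSG00000060477) is at chr6:113638467-113695026, plus strand, and 4.44% of its exonic bases overlap Gm43963 on the other strand.

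The other kinases and ligases of this layer differed by less. Irak1, the kinase that IRAK4 activates, was between 120 and 137 CPM in KO (median 130.0) and between 123.0 and 130 CPM in WT (median 129), with a log2 fold change of 0.02 (SE 0.0275). Irak3, which restrains the MyD88 complex, was between 11.7 and 19.3 CPM in KO (median 15.1) and between 12.2 and 15.1 CPM in WT (median 14.0), with a log2 fold change of 0.11 (SE 0.0860, unadjusted p = 0.223, edgeR) that was 0.04 without KO replicate 3 and 0.16 without KO replicate 1. The KO range of both genes reached beyond the WT range on either side. Irak4, Traf3 and Traf6 had log2 fold changes of 0.05, 0.01 and 0.02. Under the identity scaling only Irak2 and Irak3 of this layer remained positive.

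Among the surface receptors, Tlr2 was at 77.3, 131, 176, 154, 98.4, 131 and 124 CPM in KO replicates 1 to 7 and at 87.2, 116, 119, 104, 105, 106 and 117 CPM in WT replicates 1 to 7. Of the 7 KO libraries 5 were above all WT libraries, and KO replicate 1 was below them all. The log2 fold change was 0.24 with an SE of 0.142 (unadjusted p = 0.111, edgeR), and it ran from 0.14 without KO replicate 3 (unadjusted p = 0.285, edgeR) to 0.33 without KO replicate 1 (unadjusted p = 0.0105, edgeR). Tlr5 had a log2 fold change of 0.40 (SE 0.264) at between 0.261 and 0.708 CPM in KO (median 0.326) and between 0.144 and 0.400 CPM in WT (median 0.268), which rests on few reads, and without KO replicate 3 it was 0.17. Tlr1, Tlr6 and Tlr4 had log2 fold changes of 0.09, 0.04 and 0.00. The interval for Tlr4 ran from -0.13 to 0.13, so that larger changes of this receptor lie outside it. All 5 were positive under TMM, and Tlr1, Tlr2 and Tlr5 were under the identity scaling.

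The endosomal receptors held 4 of the 5 members with a negative log2 fold change: Tlr7, Tlr8, Tlr12 and Tlr13. Tlr7 was between 427 and 476 CPM in KO (median 447) and between 419 and 481 CPM in WT (median 457), with a log2 fold change of -0.01 (SE 0.0368). Tlr13 was between 311 and 369 CPM in KO (median 336) and between 319.9 and 362 CPM in WT (median 346), with a log2 fold change of -0.02 (SE 0.0389). The groups overlapped almost fully for both. Tlr9, the sensor of unmethylated DNA, was between 25.5 and 38.7 CPM in KO (median 31.5) and between 25.2 and 34.6 CPM in WT (median 29.5), with a log2 fold change of 0.14 (SE 0.0907, unadjusted p = 0.151, edgeR), or 0.09 without KO replicate 5. Tlr3 was at 0.02 and Tlr12, with few reads, at -0.13 on the log2 scale. Scaled to the identity genes, Tlr9 alone of the 6 was positive.

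All 5 co-receptors and trafficking factors were positive under TMM and 3 of 5 under the identity scaling. Unc93b1 was between 595 and 813 CPM in KO (median 720.3) and between 617 and 770.1 CPM in WT (median 655), with a log2 fold change of 0.10 (SE 0.0636, unadjusted p = 0.130, edgeR). Cd14 was between 473 and 675 CPM in KO (median 612) and between 511 and 614 CPM in WT (median 579), with a log2 fold change of 0.08 (SE 0.0727) that ran from 0.05 without KO replicate 3 to 0.13 without KO replicate 1. Its lowest KO library, replicate 1, was below all WT libraries, and 3 KO libraries were above them. Ly96 (MD-2, the TLR4 subunit that binds lipopolysaccharide), Ly86 and Cd180 had log2 fold changes of 0.02, 0.09 and 0.03.

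The adaptors differed by 0.13 or less on the log2 scale. Ticam2 was between 18.8 and 25.5 CPM in KO (median 20.3) and between 18.5 and 21.2 CPM in WT (median 19.7), with a log2 fold change of 0.13 (SE 0.0697, unadjusted p = 0.0915, edgeR), or 0.08 without KO replicate 4. Ticam1, the gene of TRIF, which serves TLR3 and TLR4, was between 29.2 and 37.5 CPM in KO (median 33.9) and between 29.6 and 35.3 CPM in WT (median 31.4), with a log2 fold change of 0.10 (SE 0.0547). Myd88 was between 51.8 and 73.4 CPM in KO (median 64.5) and between 56.7 and 79.4 CPM in WT (median 60.9), with a log2 fold change of 0.04 (SE 0.0812) that turned to -0.03 under the identity scaling. Tirap, the adaptor that brings MyD88 to TLR2 and TLR4, was at 0.06. Ticam1 and Ticam2 alone of the 4 were positive under the identity scaling.

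In the TAK1 and IKK complexes the largest difference of a member was 0.0513 on the log2 scale. Ikbkb, the catalytic subunit of IKK that acts on IκBα, was between 134 and 148 CPM in KO (median 138) and between 129 and 139.5 CPM in WT (median 136), with a log2 fold change of 0.05 (SE 0.0256). The unadjusted p was 0.0642 in edgeR and 0.0478 by the two-sided exact permutation test, 3 KO libraries were above all WT libraries, and under the identity scaling the log2 fold change was -0.01. Tab2 was between 192 and 248 CPM in KO (median 229) and between 207 and 245 CPM in WT (median 220.0), with a log2 fold change of 0.04 (SE 0.0504). Tab1, Tab3, Chuk and Ikbkg, the IKK scaffold NEMO, lay between 0.01 and 0.02, and Map3k7, the gene of TAK1 itself, was at -0.02. Under the identity scaling 0 of these 7 members were positive.

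In the branch that leads to interferon, Tbk1, the kinase that activates IRF3, was between 108 and 115 CPM in KO (median 111) and between 105 and 111 CPM in WT (median 110.2), with a log2 fold change of 0.03 (SE 0.0222). Irf3 was between 48.5 and 55.6 CPM in KO (median 53.2) and between 48.9 and 52.8 CPM in WT (median 51.0), with a log2 fold change of 0.04 (SE 0.0320), and 5 KO libraries were above all WT libraries and 1 below. Irf5 was between 293 and 348 CPM in KO (median 320.4) and between 295 and 342 CPM in WT (median 315), with a log2 fold change of 0.03 (SE 0.0381). All 3 of these genes turned negative under the identity scaling. Ikbke, the inducible relative of TBK1, had the largest value of this layer at 0.24 (SE 0.182), with KO replicate 3 at 75.9 CPM and the other KO libraries between 27.9 and 48.9 CPM, and without KO replicate 3 it was 0.08.

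For the NF-κB subunits, Rela was between 124 and 139 CPM in KO (median 135) and between 120.0 and 134 CPM in WT (median 130.0), with a log2 fold change of 0.06 (SE 0.0307, unadjusted p = 0.0868, edgeR), and it was at -0.01 under the identity scaling. Rel, the subunit c-Rel, was between 44.9 and 58.0 CPM in KO (median 53.4) and between 47.5 and 51.5 CPM in WT (median 50.2), with a log2 fold change of 0.08 (SE 0.0484, unadjusted p = 0.108, edgeR). In 5 KO libraries Rel was above all WT libraries, and in KO replicate 1 it was below them. Nfkb1, Nfkb2 and Relb had log2 fold changes of 0.09, 0.09 and 0.18, of which the last, Relb, had an SE of 0.134. Without KO replicate 3, Nfkb2 was at 0.01 and Relb at 0.06. Under the identity scaling 4 of the 5 subunits were positive, Rela excepted. Nfkb1 was at 136 CPM in KO replicate 1 and between 160.1 and 180.0 CPM in the other KO libraries.

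The inhibitors and A20 had a median log2 fold change of 0.16, which is the value of Nfkbia itself and was 0.02 without KO replicate 4. Nfkbia and Nfkbiz had the widest 95% intervals of the 45 members with a mean of at least 500 counts. Nfkbia was at 57.6, 93.2, 112, 183, 56.4, 74.0 and 104 CPM in KO replicates 1 to 7 and at 68.9, 80.1, 89.5, 151, 65.7, 66.4 and 85.8 CPM in WT replicates 1 to 7. Replicate 4 was the highest library of either genotype. The log2 fold change was 0.16 with an SE of 0.257 (unadjusted p = 0.532, edgeR), and without KO replicate 4 it was -0.06.

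Nfkbiz, the gene of the nuclear co-regulator IκBζ, was at 30.7, 54.4, 91.8, 90.9, 37.0, 43.7 and 49.2 CPM in KO replicates 1 to 7 and between 32.1 and 59.7 CPM in WT (median 45.7). Replicates 3 and 4 of KO stood above all WT libraries and replicate 1 below them. The log2 fold change was 0.28 (SE 0.232, unadjusted p = 0.251, edgeR), and it ran from 0.12 without KO replicate 3 to 0.38 without KO replicate 1. Nfkbie was between 10.7 and 22.3 CPM in KO (median 16.5) and between 11.9 and 15.7 CPM in WT (median 14.6), with a log2 fold change of 0.18 (SE 0.124, unadjusted p = 0.175, edgeR) that ran from 0.08 without KO replicate 3 to 0.25 without KO replicate 1. Tnfaip3 and Nfkbib were at 0.10 and 0.05 on the log2 scale, and at 0.02 and 0.01 without KO replicate 4. All 5 were positive under TMM and 4 of 5, Nfkbib excepted, under the identity scaling.

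The members differed in how much they varied between libraries of a genotype. The spread of a gene was taken as the SD of log2 CPM within genotype. Its median was 0.113 over the 47 members and 0.0798 over the 8171 tested genes with a mean of at least 500 counts. Of the 45 members at that depth, 9 were above the 90th percentile of those genes: Nfkbia (0.515), Nfkbiz (0.477), Ikbke (0.375), Tlr2 (0.301), Relb (0.273), Nfkbie (0.256), Ly86 (0.236), Nfkb2 (0.212) and Tnfaip3 (0.194). The inhibitors and A20 supplied 4 of them.

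At the other end, 14 of the 45 members were below the median of those genes, so most members at that depth were above it. Of the 14, 5 were from the 7 genes of the TAK1 and IKK complexes. The steadiest were Tbk1 (0.0346), Ikbkg (0.0370), Ikbkb (0.0434), Map3k7 (0.0467) and Irak1 (0.0482). The 9 members with a κB match in the promoter had a median spread of 0.194, with a range from 0.0467 for Map3k7 to 0.515 for Nfkbia, and the 27 members with a promoter but no match had a median of 0.102, with a range from 0.0346 for Tbk1 to 0.624 for Tlr12. Ikbke was among those without a match. Members without a promoter at hand, among them Nfkbiz (0.477) and Relb (0.273), are in neither group, and the difference was not tested.

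**Figure D3:**
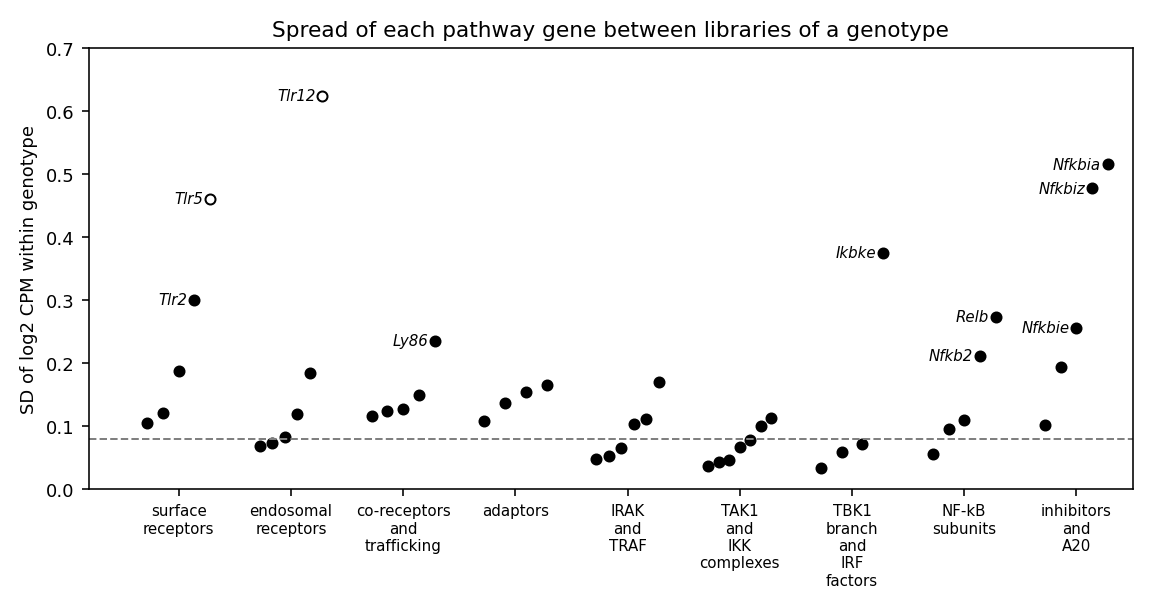
Spread of each of the 47 genes, as the SD of log2 CPM within genotype (14 libraries), by place in the pathway. Open points (Tlr5 and Tlr12) have a mean under 500 counts, names are given above 0.2, and the dashed line is the median of all tested genes with at least 500 counts, 0.0798; the inhibitors and A20 hold the 2 highest filled points.

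Libraries differed from each other in many members at once. KO replicate 1 had the lowest value of all 14 libraries for 18 of the 47 members, and KO replicate 3 had the highest for 18. In KO replicate 3 these included Tlr2, Ikbke (75.9 CPM), Relb (49.1 CPM), Nfkb2 (108 CPM) and Nfkbie (22.3 CPM). WT replicate 4 was the lowest for 11 members, yet it was the highest WT library for Nfkbia. Such counts were not made over all tested genes. The identity genes also had a median log2 deviation from their gene means of -0.16 in KO replicate 1 and 0.07 in KO replicate 3. Without KO replicate 1, 10 of the 47 members had an unadjusted p under 0.05, beside 999 of 15840 tested genes (6.31%), all of the 10 higher in KO (Tlr2, Tlr9, Cd14, Unc93b1, Irak2, Irak3, Nfkb1, Rel, Rela and Nfkbie), and none passed the adjusted threshold, the smallest adjusted p being 0.712 (edgeR).

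**Figure D4:**
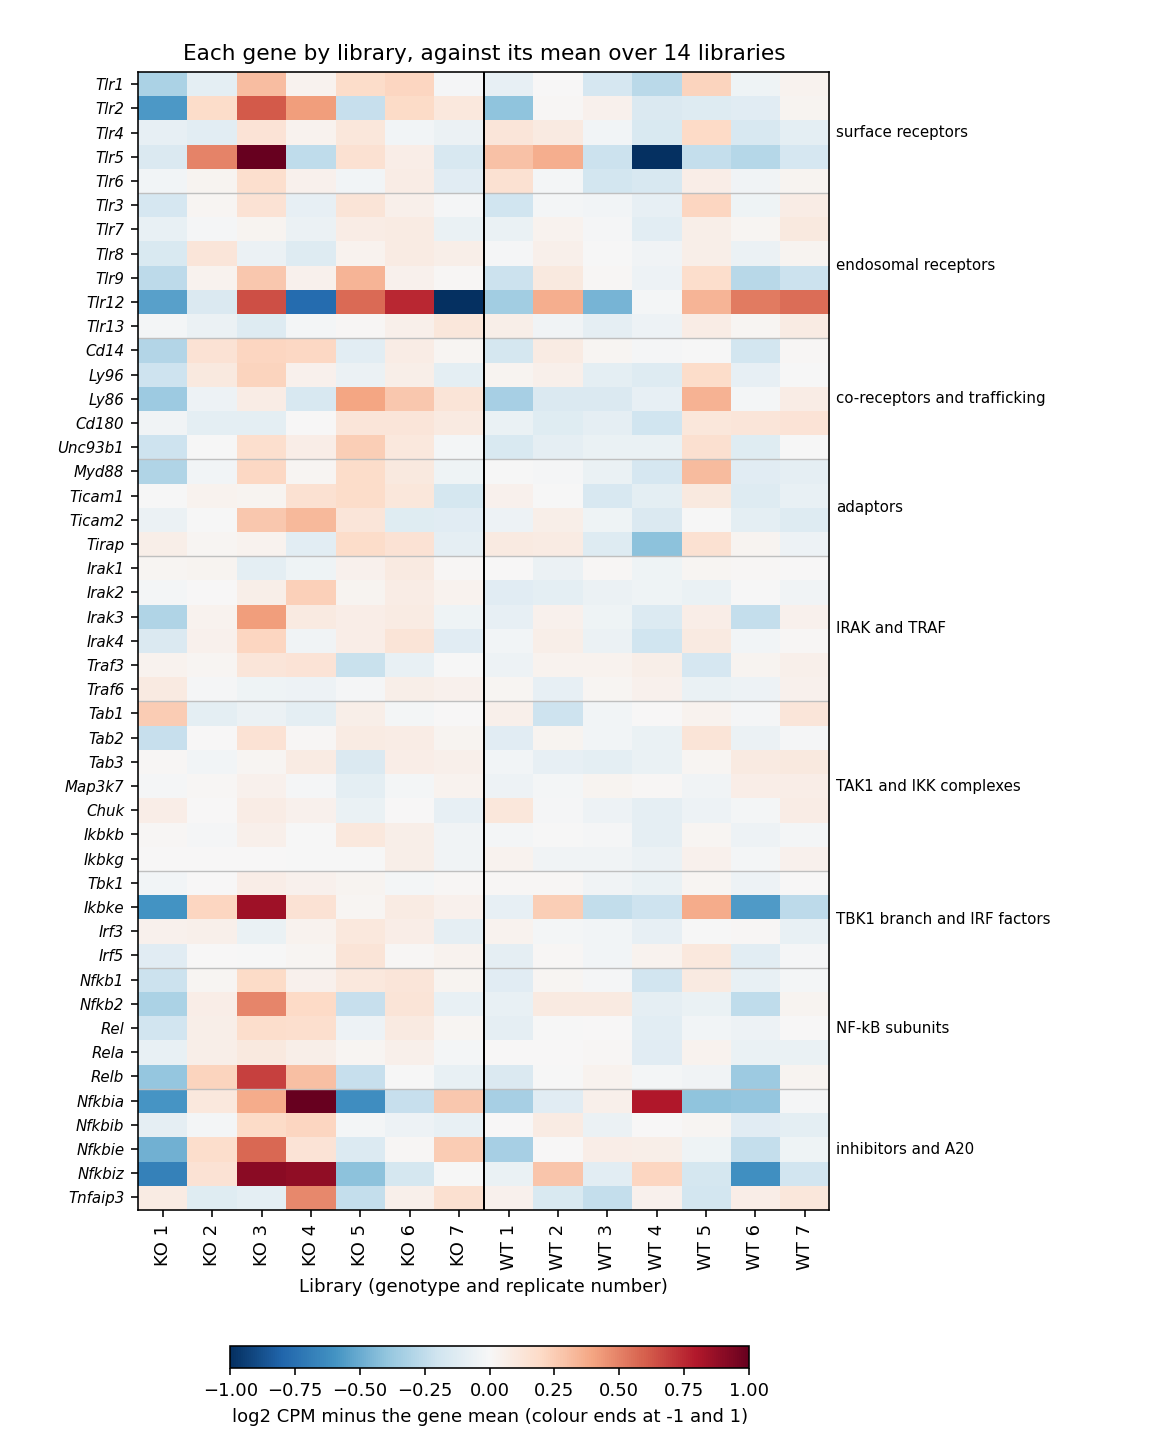
Each of the 47 genes (rows) in each of the 14 libraries (columns), as log2 CPM minus the mean of the gene over the 14 libraries; red is above the mean and blue below, and the colours end at -1 and 1. KO 3 is mostly red and KO 1 mostly blue, while Tbk1, Ikbkg, Ikbkb, Map3k7 and Irak1, the steadiest genes, have pale rows.

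The median deviation of the members from their gene means ran from -0.11 in KO replicate 1 to 0.14 in KO replicate 3, and in WT from -0.08 to 0.04. Over the same libraries the identity genes had median deviations from -0.16 to 0.10 in KO and from -0.20 to 0.07 in WT. Taken as members minus identity genes, KO libraries lay at 0.01 ± 0.06 and WT libraries at 0.01 ± 0.07 (SD, n = 7 each, log2 scale). The part of the identity genes in the direction of the members was not tested.

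**Figure D5:**
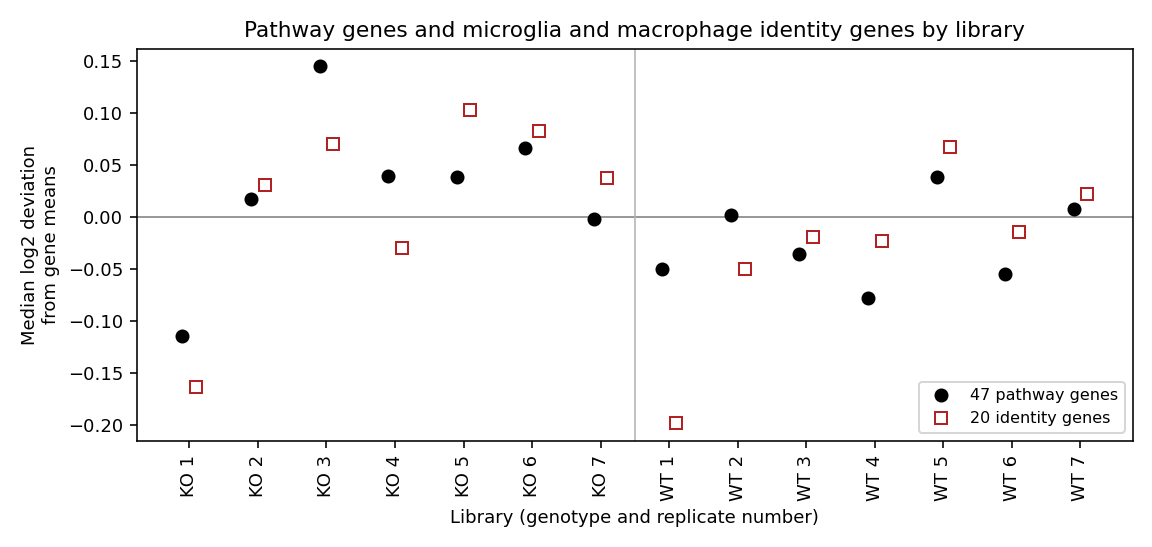
Median log2 deviation of the 47 pathway genes (black points) and of the 20 microglia and macrophage identity genes (open squares) from their gene means, in each of 14 libraries. KO 1 is lowest for the pathway genes at -0.11 and WT 1 lowest for the identity genes at -0.20, and the KO and WT points overlap in both.

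Genes known to respond to NF-κB were often highest in the libraries where Nfkbia was highest. Of 38 response genes, 32 had a mean of at least 1 CPM, and KO replicate 4 was the highest KO library for 17 of these and WT replicate 4 the highest WT library for 15. WT replicate 4 was also the lowest WT library for 5, among them the chemokines Ccl3 (142 CPM) and Ccl4 (82.3 CPM), and its sum over the response genes, 3473 CPM, was below that of WT replicate 1, 3516 CPM. Tnf, the cytokine, was at 80.1 CPM in KO replicate 4 and between 13.0 and 31.0 CPM in the other KO libraries, and at 51.6 CPM in WT replicate 4 and between 15.7 and 22.5 CPM in the other WT libraries. Cxcl2, a neutrophil chemokine, was at 20.5 and 14.1 CPM in those libraries, above all others (at most 6.14 CPM). Gadd45b, a stress response gene, was at 55.0 and 69.9 CPM, above all others (at most 29.2 CPM). These genes were chosen after their values were seen, and the cause of their level in replicate 4 was not tested. How often replicate 4 was the highest library over all tested genes was not counted. WT replicate 4 also had the highest sum of astrocyte markers of all libraries, 341 CPM, while KO replicate 4 was at 49.2 CPM.

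Of the 35 response genes that were tested, 27 had a positive log2 fold change under TMM, with a median of 0.08, and 21 under the identity scaling, with a median of 0.02, and 0 were called. At an unadjusted p under 0.05 there was 1, Il10, an anti-inflammatory cytokine, at 0.634 ± 0.560 CPM in KO and 0.279 ± 0.138 CPM in WT (SD, n = 7 each; log2 fold change 1.19, edgeR), with KO replicate 3 at 1.80 CPM. Among 50 other genes of the pathway, such as Irf8, Sharpin and Rbck1, 40 were positive under TMM with a median of 0.05 and 17 under the identity scaling with a median of -0.02, and 0 were called. Sigirr, a receptor that dampens signalling, was the only one at an unadjusted p under 0.05, at 0.352 ± 0.126 CPM in KO and 0.527 ± 0.192 CPM in WT (SD, n = 7 each; log2 fold change -0.58, edgeR).

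Markers of other cells were also measured in these cultures. The 15 astrocyte markers summed to between 36.1 and 185 CPM in KO and between 41.7 and 341 CPM in WT, and 0 of the 13 that were tested had a positive log2 fold change. The 15 neuron markers summed to between 27.1 and 62.9 CPM in KO and between 34.4 and 70.8 CPM in WT, with 3 of 15 positive. Oligodendrocyte lineage markers (15 genes, 3 of 14 tested positive) summed to between 149 and 192 CPM in KO and between 157 and 213 CPM in WT. Endothelial markers (10 genes, 4 of 6 tested positive) stood between 44.7 and 65.8 CPM in KO and between 35.7 and 56.4 CPM in WT, and neutrophil and lymphocyte markers (13 genes, 3 of 3 tested positive) between 3.88 and 19.5 CPM and between 1.78 and 12.9 CPM.

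No marker was at 0 in every library. The 18 proliferation genes, all negative, summed to between 462 and 838 CPM in KO and between 575 and 773 CPM in WT. Without the 4 libraries highest in astrocyte markers (KO replicate 7 and WT replicates 3, 4 and 6), 32 of the 47 members were positive with a median of 0.04 (TMM). The part of other cells in the member values was not tested beyond that.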

How the data were processed

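The data were poly(A) RNA-seq of 14 microglial cultures, 7 KO and 7 WT, with the genotype and replicate number of each taken from the sample labels. The authors deposited raw counts, not normalized, of the reads on each Ensembl gene in each library. Per the labels and the submitters' processing notes, reads were trimmed with Trimmomatic 0.36, mapped to GRCm38 with STAR 2.5.2b and counted with featureCounts of Subread 1.5.2, and DESeq2 is also listed. The strand setting, the annotation release and the batch of each library, which the study modelled as a covariate, are not given in the sources used here, so genotype alone was fitted and genes whose exons overlap are uncertain. All count columns were used.

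Gene names, positions and exonic lengths came from GENCODE M21 (GRCm38), which matched 49056 of the 49315 genes. Genes with low counts were dropped by filterByExpr at its defaults (10 for the count and 15 for the total), TMM factors scaled the libraries, and glmQLFTest in edgeR 4.0.16 (R 4.3.3) gave two-sided p-values, with Benjamini-Hochberg adjustment over all 15700 tested genes. The script was tested on simulated data. The SD between libraries in CPM uses TMM-scaled library sizes, and spreads use log2 CPM with a prior count of 1. For single genes, an exact permutation test ran over all 3432 assignments. DESeq2 1.42.0, other scalings, no filter, a replicate block and leaving out libraries were the alternatives. Depth was between 38875344 and 48070236 reads per library, so counting error is small except for Tlr5 and Tlr12.

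The rule for the members uses no measured value, but the members and gene lists were put together with earlier results of these data known. Full values are given for members with an unadjusted p under 0.05, for the 2 members of each layer with the smallest p, and for the member of each layer with the highest RPKM; others named with values were picked for their spread or direction after the values were seen. The layers are surface receptors, endosomal receptors, co-receptors and trafficking, adaptors, IRAK and TRAF, the TAK1 and IKK complexes, the TBK1 branch and IRF factors, NF-κB subunits, and inhibitors and A20. Promoters were from the RefSeq table of GRCm38.p6 and were searched on both strands.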

Additional observations from a re-analysis of the deposited data

Results flagged for a closer look

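For each of the 47 members, each genotype's 7 libraries were examined for a single library far from the others by Dixon's ratio at the 95% level, which made 94 groups. In 7 groups a library stood apart, and chance alone gives 4.7 at 1 in 20. Tlr2 was lowest in WT replicate 1, at 87.2 CPM with the others between 104 and 119 CPM. Myd88 was highest in WT replicate 5, at 79.4 CPM with the others between 56.7 and 63.4 CPM. Irak2 was highest in KO replicate 4, at 89.1 CPM with the others between 74.7 and 79.6 CPM. Tab2 was lowest in KO replicate 1, at 192 CPM with the others between 225 and 248 CPM. Ikbkg was highest in KO replicate 6, at 66.1 CPM with the others between 62.1 and 63.7 CPM. Nfkb1 was lowest in KO replicate 1, at 136 CPM with the others between 160.1 and 180.0 CPM. Nfkbia was highest in WT replicate 4, at 151 CPM with the others between 65.7 and 89.5 CPM.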

How the results depend on the processing

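No member was called under any alternative, and the smallest adjusted p of a member was 0.285 (Irak2, DESeq2 with the replicate block). Scaling to the identity genes moved the median of all genes to -0.06 (0.00 with TMM), left 0 members at an unadjusted p under 0.05 and 20 positive members, and turned their median to -0.018. It also turned Myd88 (-0.028), Irak1 (-0.047), Tab2 (-0.029), Ikbkb (-0.012), Tbk1 (-0.032), Irf3 (-0.019), Irf5 (-0.038) and Rela (-0.0086). Tlr3, Tlr4, Tlr6, Ly96, Cd180, Tirap, Irak4, Traf3, Traf6, Tab1, Tab3, Chuk, Ikbkg and Nfkbib turned negative as well. DESeq2 called 14 genes, and 27 with the replicate block. Members at an unadjusted p under 0.05 numbered 4 with the replicate block in edgeR (Tlr9, Unc93b1, Irak2 and Ikbkb; 5.87% of all genes) and 4 in DESeq2 with the replicate block (3.71% of all genes). Libraries that share a number come from separate pools, and over all tested genes their deviations had a mean correlation of 0.103. Of the pairs, 3 of 7 were over 0.1, and 1 of 7 libraries correlated best with its own number. The numbers were therefore not taken to pair the samples in the main fit. Single pairs were more alike, with 0.743 for replicate 5 and 0.392 for replicate 2, and Nfkbia was highest in replicate 4 of both genotypes. With the replicate block the unadjusted p of Nfkbia was 0.169, beside 0.532 without it (edgeR). Whether libraries that share a number also share a batch is not given. Leaving out 1 library at a time gave 3 to 4 called genes, 1 to 10 members at an unadjusted p under 0.05 (10 without KO replicate 1), 37 to 44 positive members and a median of 0.03 to 0.07. The log2 fold change moved by over 1.5 times for 39 of the 47 members. It ran from -0.029 to 0.0074 for Tlr7, from -0.037 to 0.0014 for Tlr13, from -0.00027 to 0.030 for Irak1 and from -0.064 (without KO replicate 4) to 0.35 for Nfkbia. The next 3 alternatives were chosen after seeing the data. Without KO and WT replicate 1, lowest in the identity genes, 6 members were at an unadjusted p under 0.05 (5.86% of all genes) and 41 were positive. Without the 4 libraries highest in astrocyte markers, Myd88 was at -0.023 and 32 members were positive, and without KO and WT replicate 4, highest in Nfkbia, 37 were. When 1 library was left out, Tlr3, Tlr4, Tlr8, Tlr12, Ly96, Cd180, Traf3, Tab1, Chuk and Ikbkg could also change sign. Without KO replicate 7, 5 members were at an unadjusted p under 0.05 (Ticam1, Ticam2, Irak2, Ikbkb and Irf3), beside 4.32% of all genes. Why values moved was not tested. Depth limits Tlr5 and Tlr12.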
